A study of Mus musculus with 12 samples.

Results

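The comparison concerns the effect of the Rnaseh1 knock-out label on gene expression in leptotene/zygotene (LZ) spermatocytes of C57BL/6 mice. It rests on 6 of the 12 libraries of the series, 3 labelled wild type (WT) and 3 labelled knock-out (KO), and on 15400 of the 23235 genes of the table. A gene was tested if 3 or more of the 12 libraries reached a value of 1. Per the labels, all cells were sorted by fluorescence, and polyadenylated RNA was amplified as cDNA before sequencing. The other 6 libraries, pachytene spermatocytes of both labels, enter through the filter, through the spread that the fit estimates over all 12 libraries, and as a contrast. The sources used here do not give the Cre driver, the deleted exons or the age of the mice, and they do not state whether the replicates are different animals. All p-values below measure the spread between these libraries, which may be technical.

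RNase H1 cleaves the RNA strand of RNA:DNA hybrids, such as those in R-loops, where nascent RNA stays paired with its DNA template. Leptotene and zygotene open the first meiotic prophase: programmed DNA breaks form, RecA-family recombinases load on them, and homologous chromosomes begin to pair along axes built of cohesins and SYCP proteins. Protamines and transition proteins belong to a much later step, the compaction of chromatin in haploid spermatids, after both meiotic divisions.

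The values are FPKM (sequenced fragments corrected for transcript length and library size) that the authors scaled by spike-in RNA. Read depth is unknown, since no counts are used here. The summed level was 885259, 803987 and 609831 in the WT libraries and 430372, 477243 and 512468 in the KO-labelled libraries, so the groups did not overlap. The means were 766359 ± 141517 and 473361 ± 41186 (SD, n = 3), a ratio of 0.618 (exact two-sided permutation p = 0.1, the smallest that 3 against 3 allows). Each library's values share 1 common factor, which was 1, 0.910 and 0.705 in WT and 0.528, 0.558 and 0.632 in KO-labelled libraries, relative to WT replicate 1. Divided by these factors, the sums were 885259, 883451 and 865110 in WT and 815705, 854598 and 810415 under the KO label, giving a ratio of 0.942. The ratio of the mean factors was 0.657, so most of the difference in the summed level was in the factors. Cell numbers per library are not given, and in bulk samples fewer cells of a type and less RNA per cell cannot be told apart. For this reason each gene is also given on a share scale, as its value per 1000000 of its library's column sum.

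**Figure D1:**
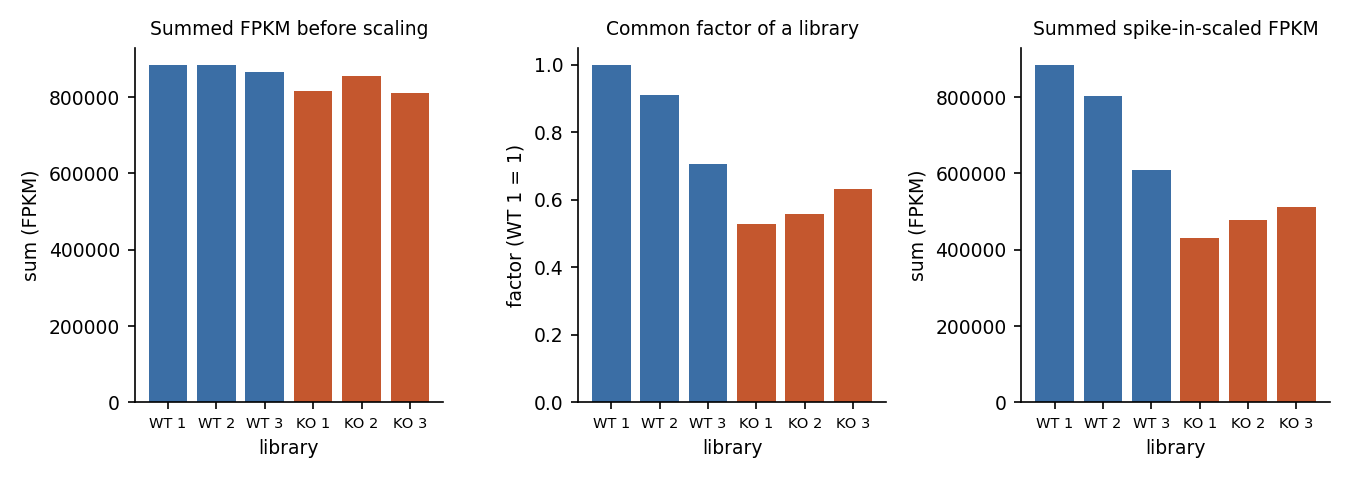
Bars give, for each of the 6 LZ libraries (x axis), the summed FPKM before the spike-in scaling (left), the factor common to all values of the library relative to WT replicate 1 (middle) and the summed spike-in-scaled FPKM (right). The sums before scaling lie between 810415 and 885259, whereas after scaling the KO-labelled libraries, at 430372 to 512468, lie below the WT libraries, at 609831 to 885259.

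Markers of the labelled stage were detected, and spermatid RNA was also present, most of all in the WT libraries. All 30 leptotene and zygotene genes in the table passed the filter, which also counts the pachytene libraries. They summed to 0.900% to 1.12% of the WT column sums and 1.00% to 1.28% of the KO-labelled ones. A list of 34 pachytene genes summed to more in WT, at 1.29% to 1.66%, and to 1.01% to 1.32% under the KO label. Detection of these markers thus cannot tell how pure the stage was. Prm1, at 10080 ± 4485 in WT, stood above the axis protein gene Sycp3, at 2113 ± 203 (spike-in-scaled FPKM, which is per transcript length). In the KO-labelled libraries Prm1 read 2581, 385 and 918 and Sycp3 1099, 1881 and 1609, so that Prm1 was the higher of the pair in replicate 1 alone. The spermatid nuclear protein list took 3.79%, 2.22% and 2.59% of the WT sums and 1.43%, 0.203% and 0.511% of the KO-labelled ones. Its part in the differences below was not tested apart from the values given with them.

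Most genes called at LZ were lower in the KO-labelled libraries on the spike-in scale, and the 2 directions were near balance on the share scale. In limma, on log2(value + 1), a Benjamini-Hochberg adjusted p under 0.05 called 1992 genes lower, 12.9% of those tested, and 21 higher, 0.136%. On shares, 136 genes were called lower (0.883%) and 141 higher (0.916%). The median log2 change over all genes was -0.43 on the spike-in scale and 0.07 on the share scale. Calls shared by both scales were 114 lower and 19 higher, and 0 genes were called in opposite directions. All 3 KO-labelled libraries lay below all 3 WT libraries for 5627 genes on the spike-in scale (36.5%) and above them for 144 (0.935%). Shares gave 1026 (6.66%) and 2090 (13.6%).

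**Figure D2:**
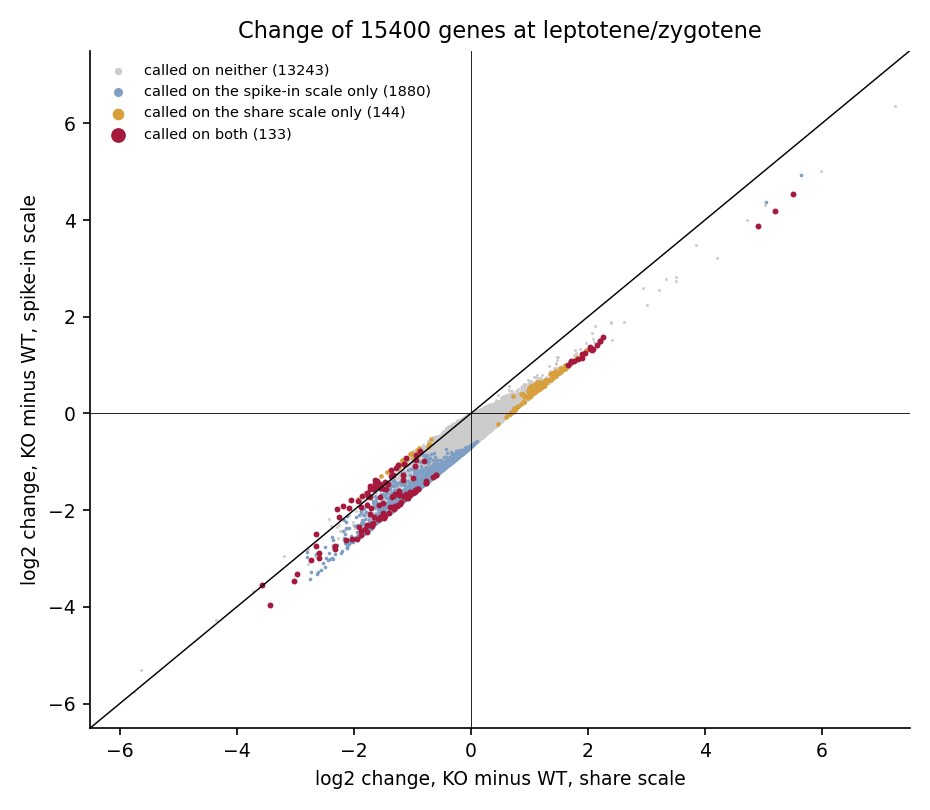
Each point is 1 of 15400 genes, with the log2 change between KO-labelled and WT LZ libraries on the share scale (x axis) and on the spike-in scale (y axis), and colours mark on which scale limma called it. The points run parallel to the diagonal line of equal change and mostly below it, and 133 genes were called on both scales.

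The calls depended on single libraries. Without WT replicate 1 the spike-in scale gave 6 lower and 1 higher, and without WT replicate 2 it gave 4 and 0. Of the genes named here, the sperm surface hyaluronidase gene Spam1 was called without either of them and Car2 without WT replicate 2. A fit of the 6 LZ libraries alone called 0 genes on either scale (smallest adjusted p 0.0679 and 0.186 in limma), with 4568 lower and 114 higher on the spike-in scale, and 768 and 1340 on the share scale, at an unadjusted p under 0.05. KO-labelled replicate 1 stood nearer the WT libraries than the other KO-labelled ones did. Across genes, its log2 values correlated at 0.963 to 0.970 with the WT libraries, but at 0.923 with KO-labelled replicate 2 and 0.952 with replicate 3. Without it the share scale called 1060 genes lower and 665 higher.

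Rnaseh1, the gene of the label, was detected in every library. Its spike-in-scaled FPKM was 16.1, 20.5 and 16.8 in WT and 11.02, 18.3 and 14.8 in KO-labelled libraries, and the groups overlapped. The log2 change was -0.28 (SE 0.23, adjusted p = 0.407 in limma), and on the share scale it was 0.37 (SE 0.24, adjusted p = 0.417). The level of the gene as a whole thus did not mark the KO-labelled libraries. The deleted part is not given, and whether transcript of the rest of the gene was counted was not tested, so all directions below are between labels.

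Of 34 RNase H and R-loop factors tested, 4 were called lower on the spike-in scale and 0 higher, against 12.9% of all genes, with a median log2 change of -0.45. The 4 were the 3 subunits of RNase H2, which removes RNA and single ribonucleotides from DNA, and Thoc6, a member of the THO complex of mRNA export. Rnaseh2a, the catalytic subunit, read 177, 184 and 131 in WT and 71.0, 58.3 and 41.4 in KO-labelled libraries, with no overlap (log2 change -1.53, SE 0.29, adjusted p = 0.0151 in limma). The other subunits were smaller in change: -0.95 for Rnaseh2c and -0.83 for Rnaseh2b. Relative to each library's sum none of the 34 was called, the list's median was 0.21, and Rnaseh2a stood at -0.86 (adjusted p = 0.091). Without KO-labelled replicate 1 or 2, 1 of the 34 was called lower, and 0 without replicate 3.

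The protamine and transition protein genes were much lower in the KO-labelled libraries, and Prm1, Tnp2 and Prm2 had the largest drops in mean FPKM of all genes tested. Prm1, Prm2, Prm3 and Tnp2 form a cluster on chromosome 16 whose outer start sites are 8.2 kb apart, and Tnp1 lies on chromosome 1 (GRCm38.p6). Since these genes moved together, the 120 bases before each start site are shown, from RefSeq promoters of GRCm38.p6, on the coding (minus) strand and 5′ to 3′. Capitals mark matches to TGANNTCA, which includes the half-site spacing of cAMP response elements bound by the spermatid factor CREM and reads alike on both strands, and to TATAA on the coding strand.
Prm1, chr16:10796824-10796943: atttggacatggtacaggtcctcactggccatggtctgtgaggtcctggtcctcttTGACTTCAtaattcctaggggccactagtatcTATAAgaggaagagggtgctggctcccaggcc
Prm2, chr16:10792106-10792225: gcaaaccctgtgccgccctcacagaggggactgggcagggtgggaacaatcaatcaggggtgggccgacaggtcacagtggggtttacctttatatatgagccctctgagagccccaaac
Prm3, chr16:10790915-10791034: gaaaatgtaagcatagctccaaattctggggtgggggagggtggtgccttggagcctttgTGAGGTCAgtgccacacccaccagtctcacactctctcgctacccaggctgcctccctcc
Tnp1, chr1:73015900-73016019: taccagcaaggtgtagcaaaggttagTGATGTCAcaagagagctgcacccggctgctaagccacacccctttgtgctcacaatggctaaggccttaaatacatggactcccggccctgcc
Tnp2, chr16:10788656-10788775: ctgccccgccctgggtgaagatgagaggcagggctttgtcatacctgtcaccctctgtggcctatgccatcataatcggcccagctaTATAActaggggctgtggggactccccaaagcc

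A TGANNTCA match was present in the stretches of Prm1, Prm3 and Tnp1, starting 64, 60 and 94 bases before the start site, and in 7.14% of all promoters over the same 120 bases. TATAA was present on the coding strand in Prm1 and Tnp2, 32 and 33 bases before the start site, and on the other strand in Prm2. It occurred on the coding strand of 8.53% of promoters. These matches are descriptions of the letters and were not tested against the changes.

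Prm1 packages sperm DNA as protamine 1, and its spike-in-scaled FPKM was 15197, 8211 and 6832 in WT and 2581, 385 and 918 in KO-labelled libraries. The highest KO-labelled library, replicate 1, was still below the lowest WT library. Its log2 change was -3.29 (SE 0.67, adjusted p = 0.0171 in limma). Tnp2, which replaces histones before the protamines, read 6282, 3479 and 3213 in WT against 908, 167 and 464 (log2 change -3.31, SE 0.63, adjusted p = 0.0151 in limma). Prm2 read 5371, 2514 and 2274 against 1005, 86.3 and 283, and Tnp1 read 4474, 2236 and 1903 against 727, 108 and 331. In all 4 genes WT replicate 1 was the highest library, KO-labelled replicate 1 the highest of its group and KO-labelled replicate 2 the lowest. Relative to library sums the 4 changes were -2.49 to -2.75 (SE 0.68 to 0.81), the groups did not overlap, and none was called (adjusted p 0.0732 to 0.106 in limma). Without KO-labelled replicate 1 all 4 were called there, at -3.20 to -3.71 (adjusted p 0.0068 to 0.0116). Without KO-labelled replicate 2 the changes were -1.75 to -1.98 (adjusted p 0.157 to 0.223).

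**Figure D3:**
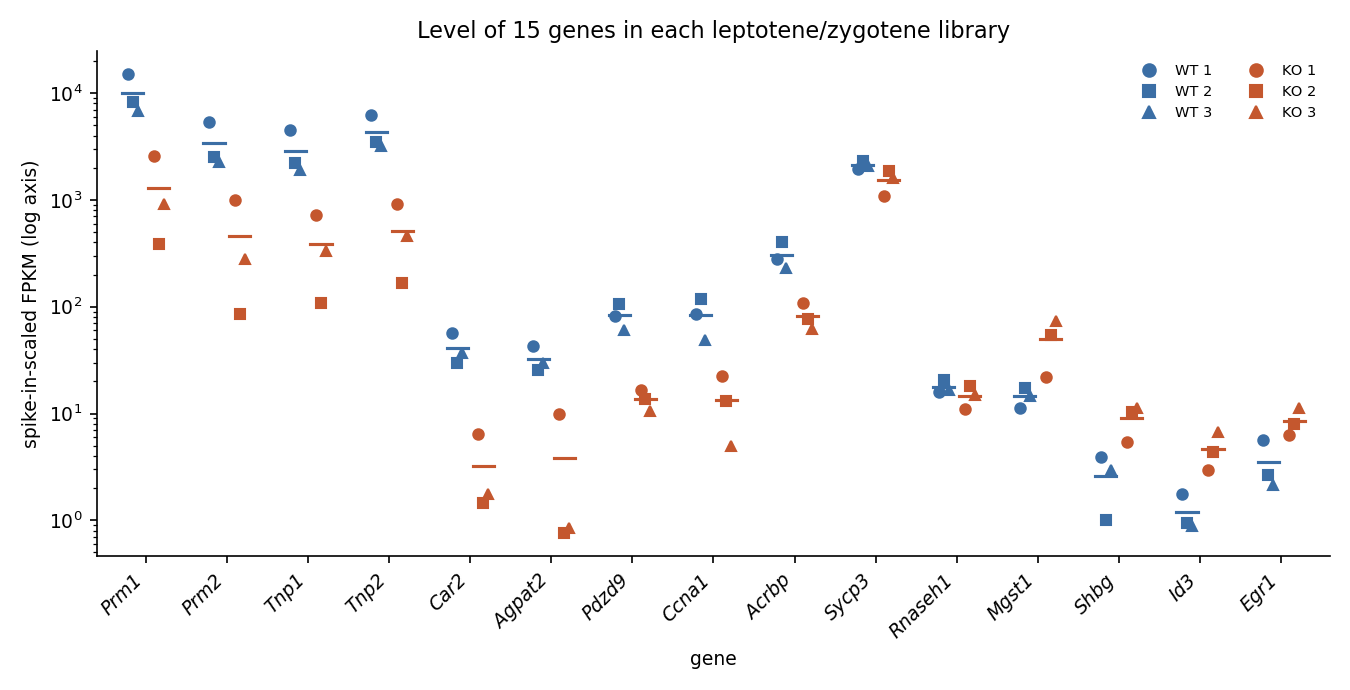
Points give the spike-in-scaled FPKM (log axis) of 15 genes in each LZ library, blue for WT and orange for KO-labelled, with the symbol showing the replicate and lines the group means. The protamine and transition protein genes separate the labels but spread widely within the KO-labelled group (Prm1 from 385 to 2581), whereas Pdzd9 is tight in it (10.5 to 16.7), and Rnaseh1 overlaps between the labels.

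The other spermatid lists were lower as well, in a graded way. Of 13 spermatid nuclear protein genes tested, 7 were called lower and 0 higher on the spike-in scale (median -2.14, against -0.43 for all genes): the 5 above, the spermatid linker histone gene H1fnt and the histone variant gene H2afb1. Of 24 acrosome genes 11 were lower (median -1.49), and of 32 sperm tail and metabolism genes 20 were lower (median -1.84), with 0 higher in either. These counts stand against 12.9% of all genes. Relative to library sums 0, 2 and 0 genes of the 3 lists were called, with medians of -1.47, -0.93 and -1.24 against 0.07 for all genes. The 2 were Spam1 and Izumo4, an IZUMO-family sperm gene.

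The sums of these lists showed how the KO-labelled libraries differed among themselves. The acrosome list took 0.233%, 0.286% and 0.334% of the sum in WT and 0.278%, 0.078% and 0.155% in KO-labelled libraries, so that replicate 1 lay inside the WT range and the other 2 below it. The tail list took 0.848%, 0.688% and 0.794% against 0.701%, 0.230% and 0.402%, in the same order. Nuclear protein genes took 1.43%, 0.203% and 0.511% in KO-labelled libraries, all below the WT range of 2.22% to 3.79% (exact permutation p = 0.1). Without KO-labelled replicate 1, 8 of 13 nuclear, 19 of 24 acrosome and 31 of 32 tail genes were called lower on the spike-in scale. Without replicate 2 these counts were 3, 6 and 4, and without replicate 3 they were 0, 2 and 0.

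**Figure D4:**
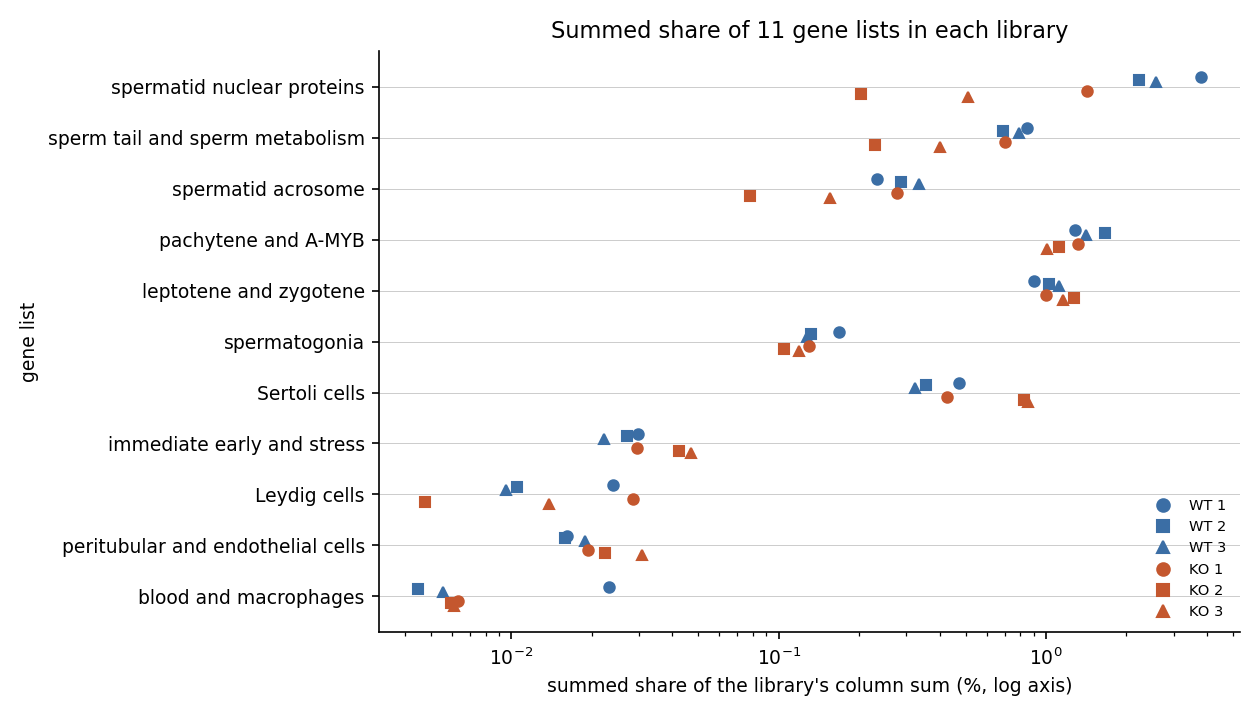
Each row is a gene list and each point a library, placed by the summed share of the list in the library's column sum (%, log axis), with blue for WT, orange for KO-labelled and the symbol for the replicate. KO-labelled replicates 2 and 3 lie left of WT in the 3 upper, spermatid rows and right of it in the Sertoli row, where KO-labelled replicate 1 lies within the WT range for acrosome, tail and Sertoli genes.

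Among the tail genes with the largest changes, Spem1, which is needed to shed sperm cytoplasm, read 171, 74.6 and 89.4 in WT and 44.9, 3.06 and 22.4 in KO-labelled libraries (log2 change -2.69, SE 0.68, adjusted p = 0.0278 in limma). The testis kinase gene Tssk6 read 104, 53.9 and 35.0 against 28.0, 2.02 and 8.05. Spata18 and Spata3 changed by -2.59 and -2.57. Of 15 spermatid regulators, 3 were called lower on the spike-in scale, beside 12.9% of all genes. They were Spz1, a basic helix-loop-helix factor, Pabpc2, a testis poly(A)-binding protein, and the kinesin gene Kif17. Spz1 read 253, 168 and 208 against 99.3, 9.48 and 47.6. KO-labelled replicate 2 was the lowest library for each of these genes, narrowly so for Pabpc2, where it read 38.2 beside 39.5 in replicate 3. These tail and regulator genes thus mostly had the order of libraries seen in the protamines.

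Further genes, some of them members of the spermatid lists above, were also low in all 3 KO-labelled libraries. Car2, a cytosolic carbonic anhydrase, had the lowest log2 change of the named genes: 57.0, 29.6 and 36.9 in WT and 6.43, 1.44 and 1.76 in KO-labelled libraries (-3.46, SE 0.46, adjusted p = 0.00739 in limma). As in the protamine genes, WT replicate 1 was the highest library, and KO-labelled replicate 1 was the highest and replicate 2 the lowest of their group. The share of Car2 fell as well, by 3.02 on the log2 scale (adjusted p = 0.0161). Of 12 carbonic anhydrase and acid-base genes tested, Car2 was the 1 called, on either scale. Over all genes 12.9% were called lower on the spike-in scale and 0.883% on shares. Car7 and the anion exchanger gene Slc4a2 had log2 changes of -0.59 and -0.12 with overlapping groups. Spam1 read 6.69, 9.15 and 14.8 against 0.208, 0.731 and 0.985, with a log2 change of -2.74 (adjusted p = 0.00358). It was called under 14 of 15 alternatives on the spike-in scale and 13 of 14 on the share scale. The exception was the fit of the LZ libraries alone.

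Pdzd9, a PDZ domain gene, read 81.5, 106 and 61.0 in WT and 16.7, 13.7 and 10.5 in KO-labelled libraries (log2 change -2.51, SE 0.34, adjusted p = 0.00739 in limma; -1.87 on the share scale, adjusted p = 0.0133). The KO-labelled libraries thus lay close together, all below the WT range. Agr3, a protein disulfide isomerase family gene, read 5.50, 8.91 and 3.33 against 0.275, 0 and 0.217, with a log2 change of -2.50. Both were called on shares under 13 of 14 alternatives. The testis serine protease genes Prss40, Prss46 and Prss51 had log2 changes of -2.61, -2.31 and -2.75, and all 3 also fell on the share scale (adjusted p 0.0266, 0.0469 and 0.0498), calls that held on shares under 9, 3 and 3 of 14 alternatives. Izumo4 read 146, 242 and 123 against 52.97, 28.3 and 30.8 (log2 change -2.15, adjusted p = 0.0107), and its share fell by 1.49. The lectin gene Clec4g and the retrocopy-like genes Hmgb1-rs17 and Ppp1r2-ps7 fell on both scales too. These 2 resemble other genes in sequence, so their counting is uncertain, and each was called on shares under 4 of 14 alternatives.

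Agpat2, which makes phosphatidic acid for glycerolipids, and the prion-like gene Prnd also fell on both scales. Agpat2 read 42.5, 25.8 and 29.5 against 9.97, 0.761 and 0.841 (log2 change -3.32, SE 0.54, adjusted p = 0.0107 in limma). Most of its KO-labelled level was thus in replicate 1, and it was called on shares under 5 of 14 alternatives. Prnd read 42.6, 5.72 and 19.9 against 1.33, 1.32 and 1.04, with WT replicate 2 well below the other WT libraries. Among the lowest changes on the spike-in scale were further Klk1b8 and Klk1b26, at -3.28 and -2.97, 2 kallikreins of a family of near-identical members whose reads may be split. Cstl1, a cystatin-like gene, the actin bundler Fscn3 and the calcium-binding S100a1 changed by -2.99, -2.91 and -2.87. None of these 5 was called on the share scale.

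Most genes of the labelled stage did not fall as a share of the RNA. Of 30 leptotene and zygotene genes, 1 was called lower on the spike-in scale, 0 higher, and 0 on the share scale, with medians of -0.46 and 0.21. Over all genes 12.9% were called lower on the spike-in scale, and 0.883% lower and 0.916% higher on shares. The medians of all genes were -0.43 and 0.07. The 1 called was Syce1, of the central element of the synaptonemal complex. It read 304, 468 and 343 in WT and 190, 216 and 204 in KO-labelled libraries (log2 change -0.84, SE 0.23, adjusted p = 0.0333 in limma). On shares it stood at -0.17 with overlapping groups. Sycp3 read 1930, 2331 and 2077 against 1099, 1881 and 1609, changes of -0.50 and 0.18 on the 2 scales, neither called. Tex101, a germ cell surface protein, was similar, at -0.48 and 0.20. All 30 genes had a negative change on the spike-in scale, and 26 of them a positive one on the share scale. Of all 15400 genes, 13341 were negative on the spike-in scale and 8751 positive on the share scale.

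The pachytene and A-MYB list holds genes taken here as switched on at the next stage. It was lower on the spike-in scale, where 21 of 34 genes were called lower and 0 higher (median -0.98). Over all genes 12.9% were called lower there and 0.136% higher, with a median of -0.43. On shares 1 was called lower and the median was -0.30, beside 0.883% and 0.07 for all genes. Ccna1, the meiotic cyclin A, read 85.4, 117 and 48.6 in WT and 22.6, 13.0 and 4.99 in KO-labelled libraries (log2 change -2.67, SE 0.53, adjusted p = 0.0167 in limma; -2.05 on the share scale, adjusted p = 0.0677). The heat shock gene Hspa1l and Theg changed by -2.30 and -1.85 at LZ and by -1.82 and -1.92 at pachytene. At pachytene Ccna1 and Pgk2 stood at 0.69 and 0.13, so the members of this list did not share 1 pattern over the stages. Pgk2, the glycolytic kinase of germ cells, read 201, 169 and 143 against 84.5, 24.8 and 41.3. Of 36 germ-cell metabolic isoforms and their partners, 17 were called lower (median -0.82), led by the sperm glycolysis gene Gapdhs at -2.17, then Pgk2, Aldoart2 and Hk1 at -1.91, -1.86 and -1.58. None was called on the share scale. The list shares of pachytene genes were 1.29%, 1.66% and 1.41% in WT and 1.32%, 1.12% and 1.01% in KO-labelled libraries, with replicate 1 inside the WT range. Without KO-labelled replicate 1, 2 or 3 the count of 21 became 19, 6 or 1.

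Cell division and DNA genes gave calls on the spike-in scale alone, and most of their members were not called, beside 12.9% of all genes called lower. Of 31 G2/M and metaphase genes, 9 were called lower (median -0.65), such as the mitotic kinase genes Plk1 (-1.62), Aurka (-1.44) and Aurkb (-1.32) and the phosphatase gene Cdc25a (-1.32). Aurka read 164, 199 and 126 in WT and 67.7, 54.0 and 55.0 in KO-labelled libraries, with no overlap. Replication and S phase gave 6 of 36 lower (median -0.57), such as the GINS subunit gene Gins4 at 85.1, 78.4 and 73.4 against 37.8, 41.5 and 39.7. Cdc6, Cdt1 and the polymerase subunit Pola2 changed by -1.02, -0.98 and -0.83. Double-strand break repair and checkpoint genes gave 2 of 33 lower, Rpa1, which coats single-stranded DNA, at -1.13 and Rad54l, a partner of the recombinases, at -0.89. The break-marking histone gene H2afx had a change of -0.19 on the spike-in scale and 0.49 on the share scale (adjusted p = 0.596 and 0.0757). None of the 100 genes of these 3 lists was called on shares, where their medians were -0.03, 0.07 and 0.21. Leaving out KO-labelled replicate 2 or 3 left at most 1 call in each of the 3 lists.

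Of 24 apoptosis and p53 genes, 2 were called lower on the spike-in scale, the opposed regulators Bax and Bcl2l1, at -1.34 and -0.85, and 0 higher, beside 12.9% of all genes called lower. Neither was called on shares (adjusted p = 0.176 and 0.529 in limma). Mdm2, a p53 target and its ligase, had -0.46 (adjusted p = 0.213 in limma). The interferon and nucleic acid sensing list gave 2 of 24 lower on the spike-in scale, 0 higher and a median of -0.09, a count likewise not above that of all genes. Ifitm1, an interferon-induced membrane protein gene, read 5.98, 4.72 and 3.06 in WT and 1.07, 0.892 and 0.141 in KO-labelled libraries, and fell on both scales (adjusted p = 0.0107 and 0.0407). The exonuclease gene Isg20 changed by -1.60, with KO-labelled replicate 1 at 19.9 near the WT value of 20.9, and was not called on shares (adjusted p = 0.313). Irf3, a transcription factor of the sensing pathway, overlapped between the labels.

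Genes higher in KO-labelled libraries included detoxification enzymes and markers of Sertoli cells, the somatic cells that nurse germ cells. Mgst1, the microsomal glutathione transferase, read 11.3, 17.4 and 14.7 in WT and 22.0, 53.9 and 73.4 in KO-labelled libraries (log2 change 1.57, SE 0.37, adjusted p = 0.0221 in limma; 2.26 on the share scale, adjusted p = 0.0171). Gsta3, a cytosolic glutathione transferase, read 1.47, 3.16 and 1.47 against 6.16, 6.38 and 9.78 and rose by 1.5 and 2.21. Of 38 glutathione and detoxification genes tested, 7 were called lower and these 2 higher on the spike-in scale, beside 12.9% and 0.136% of all genes. Gstm4 and Gsto2 were among the lower, at -1.67 and -1.27. On shares 0 were lower and 3 higher, beside 0.883% and 0.916% of all genes. The list's summed share was 0.834% to 0.863% in WT and 0.807% to 0.879% in KO-labelled libraries.

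Of 28 Sertoli genes 1 was called lower and 2 higher on the spike-in scale (median 0.37), and 5 higher and 0 lower on the share scale (median 0.99, against 0.07 for all genes). Over all genes 0.916% were higher on shares, and 12.9% were lower and 0.136% higher on the spike-in scale. Shbg, which binds androgens, read 3.91, 1.01 and 2.95 in WT and 5.39, 10.3 and 11.3 in KO-labelled libraries (log2 change 1.5, SE 0.36, adjusted p = 0.0233 in limma). Gata1, a transcription factor of Sertoli and blood cells, read 1.47, 1.42 and 2.71 against 3.16, 4.02 and 8.68. Trf, the transferrin gene, was called lower, at 4.15, 2.94 and 5.604 against 0.530, 1.73 and 0.156. The list's summed share was 0.473%, 0.356% and 0.324% in WT and 0.426%, 0.825% and 0.860% in KO-labelled libraries. KO-labelled replicate 1 lay inside the WT range and the other 2 lay above it, with a WT mean of 0.384% (exact permutation p = 0.2). Clu, an abundant Sertoli gene that the naming rule did not select, read 488, 260 and 209 against 247, 401 and 582. The part of Sertoli RNA in the higher genes was not tested.

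Immediate early genes respond to growth factor and stress signals within minutes. Their list here also holds other stress genes, such as Ddit3, Chac1 and Hspa1a. The list gave 3 higher and 1 lower of 31 tested on the spike-in scale (median 0.10). On the share scale it gave 4 higher (median 0.63). Over all genes 0.136% were called higher and 12.9% lower on the spike-in scale, and 0.916% higher on shares. The medians of all genes were -0.43 and 0.07. Egr1, a zinc finger transcription factor, read 5.67, 2.68 and 2.16 in WT and 6.35, 8.04 and 11.3 in KO-labelled libraries, with KO-labelled replicate 1 just above WT replicate 1 (log2 change 1.13, SE 0.30, adjusted p = 0.0313 in limma). Its share rose by 1.82 (SE 0.26, adjusted p = 0.0133), and this call was kept without each library in turn. The spike-in call was lost when any library other than KO-labelled replicate 1 was left out (adjusted p up to 0.117 in limma). Dusp6, a phosphatase of the ERK pathway, and Ier3 rose on both scales, from means of 0.881 and 1.23 to 3.47 and 3.46, although the groups of Ier3 overlapped on the spike-in scale. The nuclear receptor gene Nr4a1 went the other way, 3.77, 2.88 and 3.23 against 1.61, 0.503 and 0.410, and was called lower on the spike-in scale. Id3, an inhibitor of helix-loop-helix factors, read 1.76, 0.951 and 0.885 against 2.93, 4.34 and 6.67 and rose by 1.33 and 2.04. The list's share was 0.0298%, 0.0271% and 0.0221% in WT and 0.0294%, 0.0425% and 0.0469% in KO-labelled libraries, again with KO-labelled replicate 1 inside the WT range.

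Other genes higher on both scales were Phyh, a peroxisomal hydroxylase of branched fatty acids, Fxyd1, a regulator of the sodium pump, and the cardiac troponin gene Tnni3. Phyh read 4.15, 3.42 and 0.759 in WT and 4.97, 6.92 and 14.9 in KO-labelled libraries (log2 change 1.41, SE 0.41, adjusted p = 0.0425 in limma). Fxyd1 and Tnni3 rose by 1.34 and 1.22. Of 37 peroxisome and lipid genes, 9 were called lower on the spike-in scale, among them Agpat2 and the sulfatase gene Arsa, and Phyh alone higher, beside 12.9% and 0.136% of all genes. Shares gave 1 lower, 1 higher and a median of 0.01. The ribosomal protein gene Rps4x read 19.2, 10.8 and 7.17 against 29.0, 21.5 and 26.0, but it has retrocopies, so that its counting is uncertain. Tnfaip6, Lin7b and Ccdc160 were called higher on the share scale only, at 1.97, 1.93 and 1.93. On the spike-in scale each of these 3 had a KO-labelled mean of at most 6.05.

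The largest log2 change of the named genes was that of Rnaset2a, a secreted RNase gene, which read 0.0329, 0.0177 and 0.00886 in WT and 6.66, 24.4 and 16.6 in KO-labelled libraries (3.89, SE 1.01, adjusted p = 0.0296 in limma). Its close copy Rnaset2b read 20.9, 26.7 and 17.0 against 13.9, 20.3 and 15.6, with overlapping groups. How reads were split between the copies is not known, so the level of Rnaset2a is uncertain.

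Markers of other testis cells showed no common direction. On the spike-in scale 12.9% of all genes were called lower and 0.136% higher, and the spermatogonial and Leydig lists had no larger part called lower. Spermatogonial genes, of the dividing cells before meiosis, gave 2 of 24 lower on the spike-in scale, Dmrtb1, which controls the switch from mitosis to meiosis, at -1.44 and the stem cell factor receptor gene Kit at -1.27. Uchl1, an abundant ubiquitin hydrolase of spermatogonia, read 428, 284 and 196 in WT and 151, 127 and 151 in KO-labelled libraries (log2 change -1.01, adjusted p = 0.0557 in limma). Leydig cell genes, of the androgen-producing cells, gave 1 lower, the prostaglandin synthase gene Ptgds, whose groups overlapped, and 1 higher, the reductase gene Akr1cl, of 15 tested. Insl3, a Leydig hormone, read 12.3, 14.3 and 3.03 against 68.0, 2.04 and 1.74, and Cyp17a1, of androgen synthesis and outside the naming rule, was at 9.50 in KO-labelled replicate 1 and at most 0.110 in the other 5 libraries. As a share, the Leydig list was highest in KO-labelled replicate 1 (0.0286% of the sum, against 0.00473% and 0.0138% in replicates 2 and 3 and 0.0096% to 0.0240% in WT). On the spike-in scale it was highest in WT replicate 1, at 212.7 against 122.9 in KO-labelled replicate 1. Most of the former sum was Ptgds alone, which read 176 there and 4.69 in KO-labelled replicate 1.

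Peritubular and endothelial genes gave 1 of 15 lower on the spike-in scale, the smooth muscle actin gene Actg2, beside 12.9% of all genes. Actg2 read 66.4, 45.4 and 69.3 in WT and 29.8, 2.55 and 15.1 in KO-labelled libraries. As in the protamine genes, KO-labelled replicate 1 was the highest and replicate 2 the lowest of their group. The list as a whole did not fall as a share, with 12 genes positive and 3 negative. Its summed share was 0.0159% to 0.0188% in WT and 0.0194% to 0.0309% in KO-labelled libraries (exact permutation p = 0.1). Of the 20 in the table, 14 were under 1 in all 6 libraries. Sparc, a matrix protein that Sertoli cells also make, read 69.7, 49.1 and 41.4 in WT and 50.4, 80.4 and 120 in KO-labelled libraries and rose on the share scale alone (1.26, adjusted p = 0.0317 in limma). The matrix gene Dcn was highest in a single library of each label, at 27.8 in WT replicate 2 and 15.5 in KO-labelled replicate 3. Blood and macrophage genes gave 0 of 20 called. Cd74, of antigen presentation, was at 61.8 in WT replicate 1 and at most 1.00 in the other libraries, H2-Ab1 overlapped between the labels, and Cd3e had a log2 change of -0.52 (adjusted p = 0.223 in limma). The list's share was 0.0233% in WT replicate 1 and 0.0045% to 0.0063% in the other 5 libraries, and 7 of its 22 genes were under 1 in all 6.

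The X chromosome, which is silenced only later, at pachytene, had 26 of 612 genes called lower and 4 higher on the spike-in scale, with a median of -0.35. The 14644 autosomal genes had 1950 lower and 17 higher, and a median of -0.44. Relative to library sums the medians were 0.16 and 0.07. Among 9 Y-linked genes 0 were called on either scale. Change also varied with level: the median on the spike-in scale was -0.00 in the 1540 genes with the lowest WT level and -0.67 in the 1540 with the highest, while the share medians of the 10 such bins lay between 0.01 and 0.15. The pseudocount of 1 keeps changes of low genes small on the spike-in scale.

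The stages were then compared, to see which of these differences belonged to LZ. The contrast was the KO-labelled minus WT change at LZ minus that at pachytene, from the same fit and with separate WT libraries at each stage. It was called for 952 genes on the share scale (6.18%) and for 5919 on the spike-in scale (38.4%). For the protamine group the difference was not called on either scale. On the spike-in scale Prm1 had a log2 change of -3.29 at LZ and -3.06 at pachytene (difference -0.22, SE 0.94, adjusted p = 0.868 in limma), and Tnp2 had -3.31 and -3.30. Shares gave -2.61 and -3.64 for Prm1 (difference 1.03, SE 1.01, adjusted p = 0.582), and -2.64 and -3.86 for Tnp2. Car2 had -3.02 and -2.99 on shares. Of the 99 named genes, many of them chosen for their change at LZ, 24 were called on the share scale. Pdzd9 changed by -1.87 at LZ and 0.05 at pachytene (adjusted p of the difference 0.0170), Clec4g by -1.78 and -0.03, and Acrbp, of the acrosome matrix, by -1.20 and 0.31. On shares Mgst1, Gsta3, Shbg, Phyh, Gata1, Id3 and Sparc were positive at LZ, at 1.26 to 2.26, and negative at pachytene, at -0.46 to -1.09. Of these pachytene changes only that of Sparc was called (adjusted p = 0.0162 in limma). On the spike-in scale Mgst1 and Id3 stood at 0.10 and 0.02 at pachytene. Egr1 changed by 1.82 at LZ and 0.12 at pachytene on shares (adjusted p of the difference 0.0212 in limma). On the spike-in scale Egr1 changed by 1.13 and 0.69, and the difference was not called (0.44, SE 0.425, adjusted p = 0.424 in limma).

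**Figure D5:**
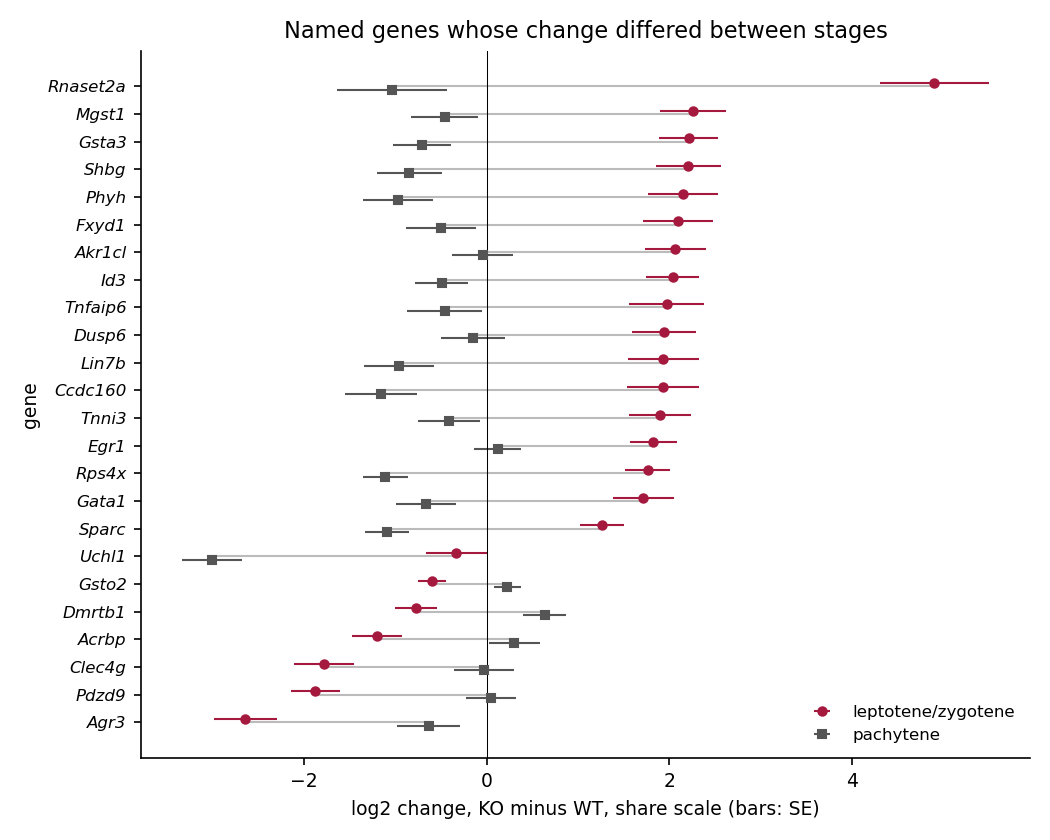
Points give the log2 change between KO-labelled and WT libraries on the share scale at LZ (red circles) and at pachytene (grey squares), with bars for the SE, for the 24 named genes whose change differed between the stages in limma. Most genes are positive at LZ and near or below 0 at pachytene, while Pdzd9, Clec4g and Acrbp are negative at LZ, at -1.87 to -1.20, and near 0 at pachytene.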

How the data were processed

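Per the labels, sorted spermatocytes gave polyadenylated RNA that was amplified and sequenced as paired ends, with 3 libraries in each of 4 groups. Per the submitters' processing notes, TopHat2 2.1.1, Cufflinks 2.2.1 and mouse build mm9 were used. The deposited values are FPKM per gene that the authors scaled by ERCC spike-in. The annotation, filters and formula are not given in the sources used here, and read depth is unknown. Of the table's columns, 4 have no name and were not used. The common factor of each library was found as the one by which its values of at least 1 become numbers of 6 significant digits.

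Genes were kept if 3 or more of 12 libraries reached 1. Values, and shares per 1000000 of the column sum, were fitted as log2(value + 1) in limma 3.58.1 (R 4.3.3), with 1 mean per group over all 12 libraries and variances that follow the mean. Two-sided p-values were Benjamini-Hochberg adjusted over all 15400 genes, and the fit was tested on simulated data. Groups were taken from the sample titles, and replicates numbered as there. Sums were compared by exact two-sided permutation. The members and the 22 gene lists were chosen with earlier results of these data known. Lists are described by counts and medians only.

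Named genes were Rnaseh1, Prm1, Tnp2, Car2 and Egr1, the 12 highest and 12 lowest called changes on each scale (a mean of 5 or more where higher, groups without overlap, no predicted genes; where fewer than 12 were called on shares, the smallest unadjusted p under 0.05 filled in), and, from each list, up to 4 called members with the largest change or up to 3 of highest level where fewer than 3 were called. Genes outside this rule were chosen after their values were seen: Rnaset2b, Clu, Cyp17a1, Prm3, H1fnt and H2afb1. Chromosomes came by symbol or older symbol from RefSeq GRCm38.p6 for 15266 genes tested, and promoter stretches from the same build, which is later than mm9. Alternatives were pseudocounts of 0.1 and 5, 3 filters, LZ libraries alone, median-ratio scaling, library weights, a replicate block and leaving out each LZ library.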

Additional observations from a re-analysis of the deposited data

Results flagged for a closer look

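The change between KO-labelled and WT libraries differed between LZ and pachytene, by the contrast of the 2 changes in limma, for 24 of the 99 named genes on the share scale and for 44 on the spike-in scale. Over all genes the shares called were 6.18% and 38.4%, and many of the 99 were chosen for their change at LZ, which enters this contrast. The 24 differences on the share scale, LZ minus pachytene in log2 units, are given here. Those of Egr1, Id3, Dusp6, Akr1cl, Tnni3 and Fxyd1 were not called on the spike-in scale. Of the enzymes and stress-linked genes, Mgst1 differed by 2.72, Gsta3 by 2.92, Phyh by 3.11, Akr1cl by 2.11 and Gsto2 by -0.83. Sertoli and matrix genes gave 3.05 for Shbg, 2.38 for Gata1 and 2.35 for Sparc. Signal-responsive genes gave 1.70 for Egr1, 2.53 for Id3, 2.09 for Dusp6 and 2.43 for Tnfaip6. Fxyd1 differed by 2.59, Tnni3 by 2.32, Lin7b by 2.89 and Ccdc160 by 3.08. Rps4x, with retrocopies, gave 2.87 and Rnaset2a, with a close copy, 5.94. Genes lower at LZ gave -2.0 for Agr3, -1.92 for Pdzd9, -1.75 for Clec4g, -1.51 for Acrbp and -1.41 for Dmrtb1. Uchl1 gave 2.67, with a change of -0.33 at LZ and -3.0 at pachytene.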

How the results depend on the processing

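Counts moved with the libraries fitted, their weights, the scaling, the filter and the pseudocount. On the spike-in scale, 1992 lower and 21 higher became 106 and 59 with median-ratio scaling (median change -0.0002), 5068 and 121 with library weights, 1101 and 7 with a pseudocount of 5, 901 and 3 without a filter, and 0 and 0 with the LZ libraries alone; a pseudocount of 0.1 gave 41 higher. Leaving out 1 library gave 4 to 2925 lower and 0 to 74 higher. On the share scale, 136 and 141 became 87 and 53 with a pseudocount of 0.1, 76 and 68 with a filter of 5, 0 and 0 with the LZ libraries alone, and 88 higher with a filter on LZ libraries. Leaving out 1 library gave 34 to 1060 lower and 20 to 665 higher. Weights on the share scale stopped before they converged. LZ library pairs with the same number had correlations of deviations of -0.00, 0.22 and 0.06, and those with different numbers -0.16 to 0.12. Whether the numbers mark pairs or batches is not given in the sources used here, and these values cannot decide it. The replicate block gave 2069 and 26 on the spike-in scale and 158 and 112 on the share scale. With 1 library left out, the KO over WT ratio of summed shares moved by over 1.5 times for 3 lists: blood and macrophages, 0.552, to 1.22 without WT replicate 1 (range 0.425 to 1.22), Leydig cells, 1.07, to 0.632 without KO replicate 1 (range 0.632 to 1.57), and spermatid nuclear proteins, 0.249, to 0.125 without KO replicate 1 (range 0.125 to 0.338).

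No named gene that was called changed sign. Uncalled genes did, with the cause not tested. Median-ratio scaling turned Rnaseh1 to 0.28, Sycp3 to 0.091, Tex101 to 0.11, Insl3 to 0.27, Slc4a2 to 0.42, H2afx to 0.40, Mdm2 to 0.12 and Irf3 to 0.43. Library weights gave Slc4a2 0.080 and Dcn -1.60, and on shares Insl3 -0.22, H2-Ab1 0.11 and Cd3e -0.009. A pseudocount of 5 gave Insl3 0.12, Dcn -0.12 and, on shares, Car7 0.0044. With 1 library left out, the spike-in scale gave -1.70 to 0.63 for Insl3, -1.06 to 1.4997 for Dcn, -0.44 to 0.32 for Slc4a2 and -0.30 to 0.062 for Irf3, and shares gave -1.30 to 1.29 for Insl3, -0.84 to 1.95 for Dcn, -0.24 to 0.31 for H2-Ab1, -0.20 to 0.29 for Cd3e and -0.74 to 0.50 for Car7.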
